A study of Mus musculus with 8 samples.

Results

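The 9 genes described here move bicarbonate across membranes or catalyse the hydration of carbon dioxide: Slc4a2, Slc4a3, Slc4a4, Slc4a7, Slc4a8, Slc4a10, Car2, Car4 and Car14. They were chosen by symbol and found by identifier among the 39179 genes of the count tables by a rule that uses no measured value, although earlier results of these data were known when the set was drawn up. RNA-seq was made from spinal cord astrocytes of mice aged postnatal day 12 to 14, of a mixed Swiss-Webster strain. All 8 libraries came from cells that carried an Aldh1l1-GFP reporter and were collected by fluorescence sorting after papain dissociation. The control group had 4 libraries (S1, S2, S6 and S7) labelled wild-type and cre-negative. The conditional knockout (cKO) group had 4 libraries (S3, S4, S5 and S8) from mice with both Kir4.1 alleles floxed and an Aldh1l1-cre transgene. Kir4.1, the product of Kcnj10, is the inwardly rectifying potassium channel that holds astrocytes at a negative membrane potential. Reporter and cre share the Aldh1l1 promoter, and whether the controls carried floxed alleles, or how many animals stand behind a library, is not given in the sources used here.

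Astrocytes take up and release bicarbonate and so buffer the pH of the fluid around neurons. The main route is the electrogenic sodium bicarbonate cotransporter NBCe1, encoded by Slc4a4, which carries net negative charge and therefore responds to membrane potential: depolarisation by potassium drives bicarbonate inward. Electroneutral sodium-dependent transporters (Slc4a7, Slc4a8, Slc4a10) load base, sodium-independent anion exchangers (Slc4a2, Slc4a3) trade chloride for bicarbonate, and carbonic anhydrases (Car2 in the cytosol, Car4 and Car14 on the outer cell surface) interconvert carbon dioxide and bicarbonate. Carbonic anhydrases hold a zinc ion at their active site by the side chains of histidines.

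The coding stretch around the first pair of zinc ligands is shown for the 3 carbonic anhydrase members and, for comparison, for Car10, the family gene with the next highest read count after Car2 in these cells. Each stretch has 36 bases, is written 5′ to 3′ on the coding strand of GENCODE M21 transcripts (GRCm38), and has the 2 codons for the ligand positions in capitals.
Car2: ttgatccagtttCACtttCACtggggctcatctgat
Car4: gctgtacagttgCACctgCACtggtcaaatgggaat
Car14: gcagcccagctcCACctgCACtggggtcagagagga
Car10: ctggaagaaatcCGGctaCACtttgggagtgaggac
The stretches lie in coding exons at chr3:14895057-14895092 (Car2, plus strand, exon 3), chr11:84964155-84964190 (Car4, plus strand, exon 4), chr3:95900294-95900329 (Car14, minus strand, exon 4) and chr11:93490594-93490629 (Car10, plus strand, exon 4). Car2, Car4 and Car14 have histidine codons (CAC) at both capital positions and at the last ligand position further downstream, 3 of 3. Car10, a carbonic anhydrase-related protein, has a histidine codon at 1 of 3. Its first ligand codon is CGG, an arginine codon, and its last encodes glutamine. Among the 16 carbonic anhydrase family genes searched, 13 had 3 histidine codons, and Car8, Car10 and Car11 had fewer (2, 1 and 0).

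The count tables held between 13892736 and 25065686 gene reads per library. Differences were tested with edgeR's quasi-likelihood test over 14757 genes, with a log2 fold change of cKO over control and a threshold of 0.05 on the Benjamini-Hochberg adjusted p. Levels are given as CPM, read counts scaled to library size with edgeR's TMM factors, and values listed per library keep the order of the labels above. The targeted gene, Kcnj10, was at 1181 to 2306 CPM over the controls and at 27.2 to 37.6 CPM over the cKO libraries, so that no library went against its label. Summed over the 10 genes of the astrocyte marker list, the controls held 14926 to 22120 CPM and the cKO libraries 17841 to 21908 CPM. Astrocyte markers were the highest of the 9 marker lists in each library, and markers of oligodendrocytes were present too, at 1480 to 2950 CPM summed over 10 genes in controls and 983 to 2413 CPM in cKO. Of the 10 astrocyte markers, 2 were higher in cKO past the threshold in edgeR, with groups that did not overlap. Aldh1l1, whose promoter drives reporter and cre, was at 139 CPM ± 8.65 in controls and 282 CPM ± 48.8 in cKO libraries (SD, n = 4 each; log2 fold change 1.01, edgeR adjusted p 0.0179). Aqp4, the astrocyte water channel, was at 2007 CPM ± 354 and 4286 CPM ± 783 (SD, n = 4 each; log2 fold change 1.09, edgeR adjusted p 0.0243). Their part in the members' values was not tested. Mean levels of the 9 marker lists were compared by exact 2-sided permutation, where the smallest p for 4 against 4 libraries is 0.0286, so that a single separated list could not pass after adjustment over 9. The lowest adjusted p was 0.257, which does not show that the groups had a like cell makeup.

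None of the 9 members passed the threshold. At a background of 0.318% of all genes tested (47 of 14757; 0.203% higher and 0.115% lower in cKO), 0 of 9 had an adjusted p under 0.05 in edgeR. In DESeq2, where the background was 2.49%, it was also 0 of 9. All 9 were abundant enough to be tested. At an unadjusted p under 0.05 there were 2 of 9, Car4 and Car14, both lower in cKO, where the background was 9.81% in either direction, 4.77% lower and 5.03% higher. The median log2 fold change of the members was −0.44, beside −0.017 over all genes tested, with 3 members above and 6 below 0. The 4 control and 4 cKO libraries overlapped in all 9 members, while 6.34% of all genes tested had groups that did not overlap. In bulk samples of this kind, fewer cells of a type and less RNA per cell cannot be told apart.

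**Figure D1:**
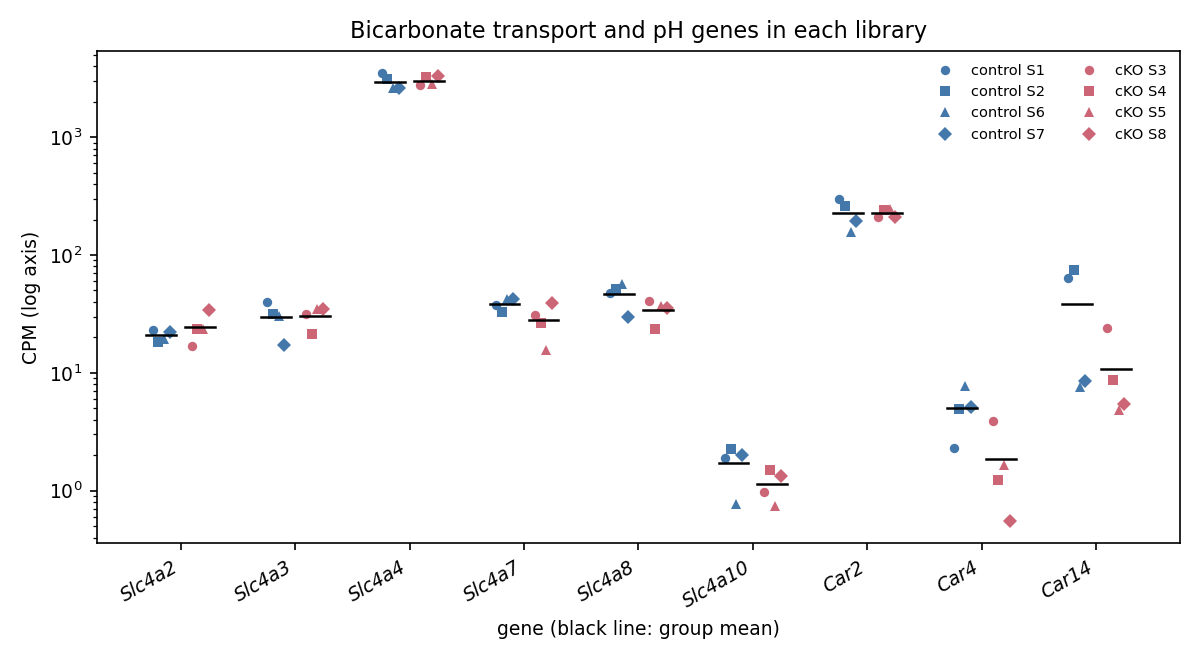
CPM on a log axis for the 9 genes, with 1 point per library (control blue, cKO red) and the group mean as a black line. Slc4a4 lies between 2601 and 3499 CPM in all 8 libraries, Car14 ranges from 4.84 to 74.6 CPM, and the groups overlap for every gene.

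Slc4a4 was the most abundant member and showed no detectable difference. Its level was 3499, 3103, 2605 and 2601 CPM for control S1, S2, S6, S7 and 2774, 3249, 2815 and 3278 CPM for cKO S3, S4, S5, S8. The groups lay on top of each other, with means of 2952 CPM ± 434 and 3029 CPM ± 271 (SD, n = 4 each). The cKO to control ratio was 1.03 with a 95% interval of 0.813 to 1.29 (edgeR's quasi-likelihood test, adjusted p 0.962), so a rise beyond 1.29-fold or a fall below 0.813-fold lies outside that interval. Slc4a4 (ENSMUSG00000060961, chromosome 5, 88886818 to 89239653, plus strand, on GRCm38 as for all genes here) has 29 merged exon blocks and shares no exon bases with another gene. Its reads numbered 42632 to 76575 per library, the deepest of the members. Of all reads on the 10 Slc4 genes of the lists, Slc4a4 took 95.3% ± 0.541 in controls and 96.0% ± 0.682 in the cKO group (SD, n = 4 each), and per kilobase of exon 95.2% ± 0.468 and 95.7% ± 0.754. Counts per gene do not separate the kidney-type and brain-type NBCe1 transcripts.

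The electroneutral sodium-dependent transporters were lower in cKO on average, without passing the threshold. Slc4a7, which encodes NBCn1 (ENSMUSG00000021733, chromosome 14, 14702279 to 14799940, plus strand), was at 37.4, 32.5, 42.1 and 42.7 CPM for control S1, S2, S6, S7 and at 31.0, 26.5, 15.7 and 39.4 CPM for cKO S3, S4, S5, S8. Only cKO S8 lay within the control range, and cKO S5 was lowest. The log2 fold change was −0.46 with a 95% interval of −1.02 to 0.10 (edgeR's quasi-likelihood test, adjusted p 0.59995). Slc4a8, which encodes the sodium-driven chloride bicarbonate exchanger NDCBE (ENSMUSG00000023032, chromosome 15, 100761747 to 100823968, plus strand), was at 47.8, 51.8, 56.2 and 29.8 CPM in controls and 40.6, 23.5, 36.9 and 35.4 CPM in cKO, in the same library order. Control S7 fell among the cKO libraries, and the log2 fold change was −0.44 with a 95% interval of −0.96 to 0.072 (edgeR's quasi-likelihood test, adjusted p 0.576). For both genes the interval includes 0 and reaches down to ratios of 0.494 and 0.514.

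Slc4a10, a sodium-dependent transporter best known from neurons and choroid plexus (ENSMUSG00000026904, chromosome 2, 62046462 to 62326730, plus strand), was close to the detection floor. It had 13 to 42 reads per library, or 1.90, 2.26, 0.769 and 1.99 CPM in controls and 0.970, 1.497, 0.741 and 1.33 CPM in cKO. Control S6 lay among the lowest libraries, so the groups overlapped. The 95% interval of the log2 fold change, −2.04 to 0.84, covers a fall to a ratio of 0.243 as well as a rise. Neuronal markers were low as well: summed over 10 genes they held 51.3 to 89.0 CPM in controls and 34.5 to 56.8 CPM in cKO. Slc32a1 was at 0 in 1 or more libraries. Of 9 neuronal markers tested, 7 had a negative log2 fold change, beside 7618 of all 14757 genes. Their mean log2 CPM was 1.57 ± 0.43 in controls and 0.86 ± 0.32 in the cKO group (SD, n = 4 each, exact 2-sided permutation p 0.0571, adjusted over 9 cell types 0.257). Lower marker means in cKO were not particular to neurons, as given for Car4 below. The part of neurons in the Slc4a10 value was not tested.

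For the anion exchangers the difference between group means was smaller than the range from lowest to highest library within either group. Slc4a2, which encodes the widespread exchanger AE2 (ENSMUSG00000028962, chromosome 5, 24423837 to 24440950, plus strand), was at 23.3, 18.3, 19.5 and 22.4 CPM in controls and at 16.9, 23.6, 23.4 and 34.1 CPM in cKO. The cKO group held both the lowest and the highest library, S3 and S8. Its log2 fold change was 0.23 with a 95% interval of −0.30 to 0.76 (edgeR's quasi-likelihood test, adjusted p 0.814). Of the merged exon bases of Slc4a2, 13.7% are shared with Fastk and Gm22333 on the opposite strand, so reads there are uncertain, since the strand setting is not given in the sources used here. Slc4a3, which encodes AE3, an exchanger of excitable tissue and brain (ENSMUSG00000006576, chromosome 1, 75546266 to 75562172, plus strand), was at 39.7, 31.4, 30.5 and 17.3 CPM in controls and at 31.9, 21.4, 34.7 and 34.5 CPM in cKO. Control S7 and cKO S4 were the low libraries, 1 in each group. The log2 fold change was 0.043 with a 95% interval of −0.53 to 0.62 (edgeR's quasi-likelihood test, adjusted p 0.976). On the authors' deposited FPKM values the sign of both genes turned, as given in the closing section.

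**Figure D2:**
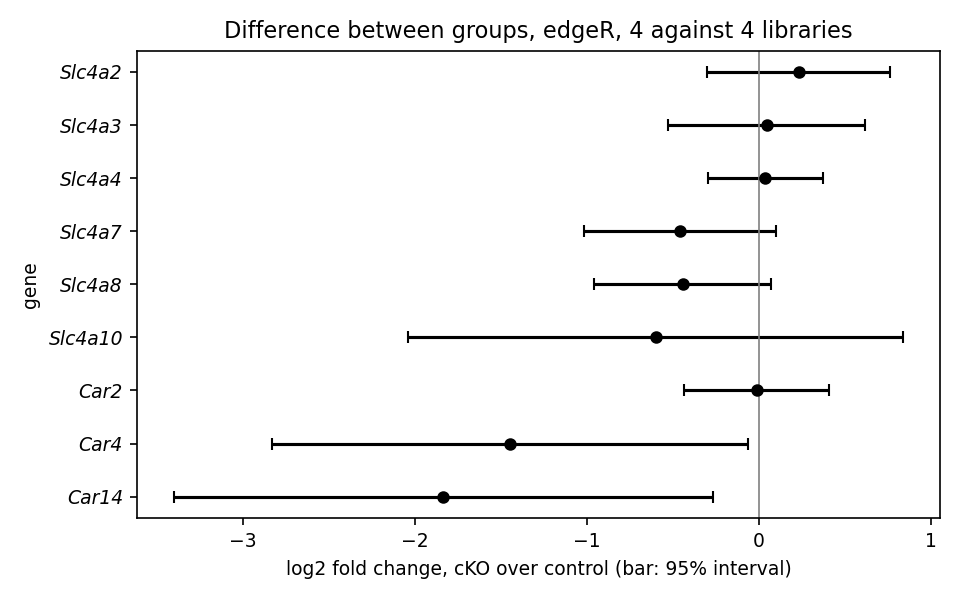
Log2 fold change of cKO over control for each of the 9 genes (point) with its 95% interval (bar), from 4 against 4 libraries. The intervals of Slc4a4 and Car2 are the narrowest, and those of Car4 (−2.83 to −0.063) and Car14 (−3.40 to −0.27) lie below 0 before adjustment for 14757 tests.

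Car2, the fast cytosolic carbonic anhydrase (ENSMUSG00000027562, chromosome 3, 14886273 to 14900770, plus strand), showed no detectable difference. Control libraries S1, S2, S6 and S7 were at 296, 263, 156 and 196 CPM and cKO libraries S3, S4, S5 and S8 at 210.1, 239.6, 245 and 209 CPM. All 4 cKO libraries lay inside the control range. The group means were 228 CPM ± 63.4 and 226 CPM ± 18.9 (SD, n = 4 each), and the ratio was 0.991 with a 95% interval of 0.740 to 1.33 (edgeR's quasi-likelihood test, adjusted p 0.991). Oligodendrocytes also make Car2. All 10 oligodendrocyte markers had a negative log2 fold change, beside 7618 of all 14757 genes tested. Of the 10, 0 passed the threshold and 3 had an unadjusted p under 0.05 in edgeR, where 4.77% of all genes were lower. Their mean log2 CPM was 6.37 ± 0.37 in controls and 5.61 ± 0.78 in the cKO group (SD, n = 4 each, exact 2-sided permutation p 0.114, adjusted over 9 cell types 0.257). All 7 oligodendrocyte precursor markers had a negative log2 fold change too, 4 of them at an unadjusted p under 0.05 in edgeR. The part of oligodendrocytes in the Car2 level was not tested.

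Car14, a carbonic anhydrase anchored in the membrane with its active site outside, varied most of the members within the controls. It was at 64.1 and 74.6 CPM in control S1 and S2 but at 7.58 and 8.53 CPM in control S6 and S7, a 9.84-fold range within the control group. The cKO libraries were at 24.3 CPM in S3, 8.66 CPM in S4, 4.84 CPM in S5 and 5.48 CPM in S8, a 5.01-fold range. Control S6 and S7 thus lay within the cKO range. The group means were 38.7 CPM ± 35.6 and 10.8 CPM ± 9.12 (SD, n = 4 each), and the log2 fold change −1.84 ± 0.72 (SE). In edgeR's test the adjusted p was 0.415 and the unadjusted p 0.0249. Leaving out cKO S3 moved the log2 fold change to −2.61, and leaving out control S2 moved it to −1.30. Car14 (ENSMUSG00000038526, chromosome 3, 95897768 to 95904691, minus strand) shares 17.5% of its exon bases with Aph1a on the opposite strand.

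Car4, which is tethered to the outer membrane by a lipid anchor and is also a capillary enzyme (ENSMUSG00000000805, chromosome 11, 84957786 to 84966044, plus strand), was lower in cKO on average. It was at 2.28, 4.95, 7.74 and 5.12 CPM for control S1, S2, S6, S7 and at 3.93, 1.22, 1.65 and 0.556 CPM for cKO S3, S4, S5, S8. Within the cKO group Car4 had a 7.07-fold range, wider than the 5.01-fold range of Car14. Control S1 was lower than cKO S3 for Car4, and the other libraries were separated by group. The log2 fold change was −1.45 ± 0.64 (SE), from 13 to 141 reads per library. In edgeR's test the adjusted p was 0.484 and the unadjusted p 0.0417. Endothelial markers moved in the same direction, and this was not particular to them. The mean log2 CPM of oligodendrocyte, oligodendrocyte precursor, neuronal, mural, fibroblast and ependymal markers was lower in cKO too. That of astrocyte and microglial markers was higher. Of 8 endothelial genes, 7 had a negative log2 fold change and none was at 0 in any library, and their sum was 43.3 to 70.03 CPM in controls and 56.5, 23.3, 34.4 and 27.3 CPM for cKO S3, S4, S5, S8, so that cKO S3 was the highest cKO library for Car4 and for these markers. Within the controls the orders differed: control S1 was lowest for Car4 at 2.28 CPM and had 65.2 CPM of endothelial markers. Control S6 was highest for Car4 and for this sum. The order of libraries depended on the summary. By mean log2 CPM, control S1 was the highest control for endothelial markers at 2.78, beside 2.53 in control S6. The lowest cKO library was S5 by that mean, at 0.68, and S4 by the sum. Control S6 also held the highest sum of 5 fibroblast markers, 575 CPM. Among the cKO libraries, S3 also held the highest sums of oligodendrocyte precursor, fibroblast, microglial and ependymal markers. The endothelial mean log2 CPM was 2.40 ± 0.36 in controls and 1.40 ± 0.82 in the cKO group (SD, n = 4 each, exact 2-sided permutation p 0.114, adjusted over 9 cell types 0.257). Their part in the Car4 difference was not tested.

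Per kilobase of merged exon, the order in controls was Slc4a4, Car2, Car14, Slc4a8, Slc4a3, Car4, Slc4a7, Slc4a2 and Slc4a10. Merged exons join all annotated transcripts of a gene, so this scale compares genes only roughly. Slc4a4 was at 273 CPM per kilobase ± 40.2 and Car2 at 94.1 CPM per kilobase ± 26.2 (SD, n = 4 each), and their libraries did not overlap. Among the 14576 tested genes with an exon length, Slc4a4 ranked 48 and Car2 ranked 146. Car14 followed with 15.2 CPM per kilobase ± 14.0, overlapping Slc4a8 at 3.56 ± 0.891. From Slc4a8 to Slc4a2 every neighbour in the order overlapped the next within the controls, with means of 3.56 to 2.51 CPM per kilobase, and Slc4a10, at 0.269 ± 0.102, lay below all others. Slc4a4, Car2, Car14 and Slc4a10 held the same places, 1, 2, 3 and 9, by the mean of the authors' deposited FPKM values in controls (560, 179, 45.8 and 0.957), while Slc4a2 moved from place 8 to place 4 with 22.1 FPKM.

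The carbonic anhydrase family was led by Car2 in every library. Car2 took 54.6% ± 5.71 of the family's reads in controls and 55.4% ± 1.18 in cKO, and Car10 took 25.6% ± 8.85 and 30.5% ± 3.55 (SD, n = 4 each). Car14 took 8.37% ± 7.02 of reads in controls and 2.71% ± 2.41 in cKO. Scaled per kilobase of exon, the share of Car10 was 11.9% ± 4.73 in controls and 14.4% ± 2.03 in cKO, and that of Car14 was 9.24% ± 7.50 and 3.15% ± 2.71. Car10 was at 77.1, 96.6, 109 and 118 CPM for control S1, S2, S6, S7, and so was lowest in S1, where Car14 was high. In cKO S3, S4, S5 and S8 it was at 99.6, 128, 141 and 130 CPM, and its log2 fold change of 0.31 did not pass the threshold (edgeR's quasi-likelihood test, adjusted p 0.59995). Per kilobase, Car10 and Car14 overlapped in controls, at 12.1 to 18.6 and 2.98 to 29.3 CPM per kilobase, with means of 15.8 and 15.2. In cKO they did not overlap, at 15.7 to 22.1 CPM per kilobase for Car10 and 1.90 to 9.54 for Car14.

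**Figure D3:**
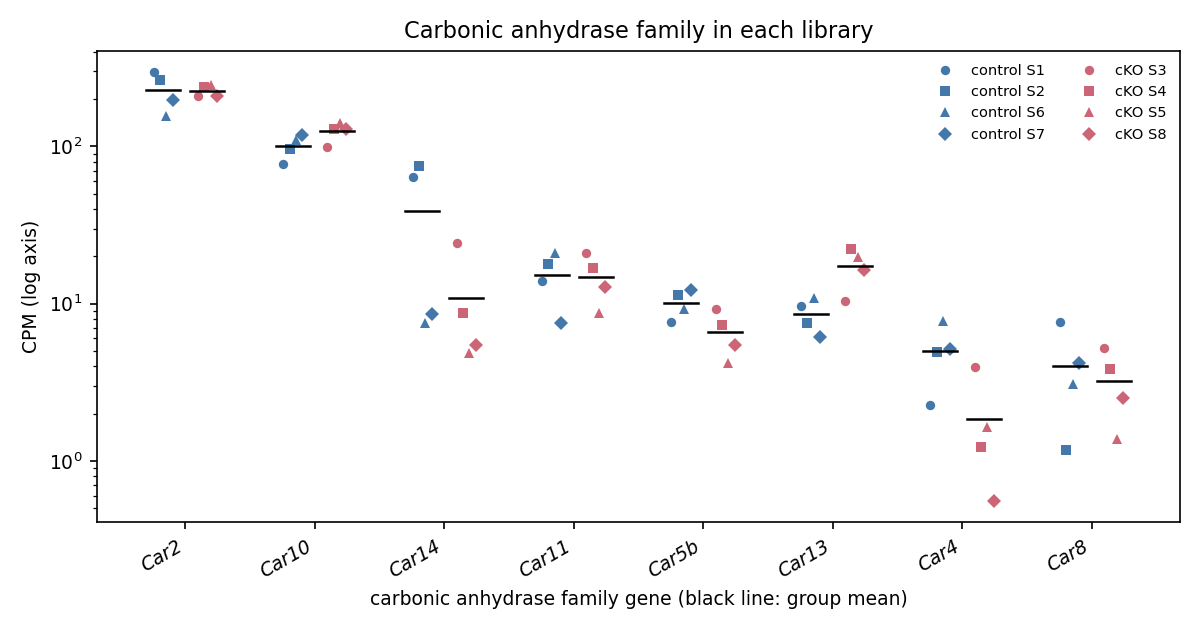
CPM on a log axis for the 8 carbonic anhydrase family genes with reads in every library whose mean reached 1 CPM, 1 point per library (control blue, cKO red), with the group mean as a black line. Levels are not scaled to gene length, Car2 is the highest gene in each library, and Car14 in control S1 and S2 stands apart from control S6 and S7.

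The other genes of the pathway, a list of 84, were examined in the same fit. Of these, 55 were tested and 0 passed the threshold in edgeR, while DESeq2 called 1, Slc4a11. At an unadjusted p under 0.05 there were 6 of 55 in edgeR (10.9%, against 9.81% of all genes), 4 higher and 2 lower in cKO, and 3 of 55 had groups that did not overlap, all higher in cKO, where the background was 6.34% in either direction and 3.39% for higher values. The median log2 fold change was −0.016, beside −0.017 over all genes tested. By its unadjusted count, its overlaps and its median the list lay near the background.

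Among the bicarbonate transporters outside the members, Slc4a11, a family member that transports protons and water rather than bicarbonate, was at 0.570, 0.218, 0.604 and 0 CPM for control S1, S2, S6, S7. It was at 1.48, 4.17, 1.25 and 9.59 CPM for cKO S3, S4, S5, S8, above every control library. Its log2 fold change was 3.55 ± 1.02 (SE), and the adjusted p was 0.220 in edgeR and 0.00878 in DESeq2. Without cKO S8, its highest library, the log2 fold change was 2.71 (edgeR adjusted p 0.503), and on log2(FPKM + 1) it was 1.26 (limma adjusted p 0.519). Slc4a5, another electrogenic cotransporter, was at 12.8 and 13.8 CPM in control S1 and S2 and at 2.31 and 2.75 CPM in control S6 and S7, the same high and low control libraries as for Car14, and at 2.31 to 5.52 CPM in cKO (adjusted p 0.524 in edgeR). Slc4a5 was named after its values were seen. The split within the controls was not particular to Slc4a5 and Car14. Control S1 and S2 also lay above control S6 and S7 for Slc4a4, Car2 and the astrocyte marker Gja1 (3352 and 2705 against 1475 and 1554 CPM). The astrocyte marker Gfap went the other way (165 and 145 against 257 and 289 CPM). So did the summed markers of oligodendrocyte precursors (531 and 363 against 825 and 1256 CPM).

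Of the remaining genes at an unadjusted p under 0.05, Slc9a9 and Ptprg were higher in every cKO library than in any control library. Slc9a9, an endosomal sodium-proton exchanger, was at 26.2 CPM ± 3.66 in controls and 39.2 CPM ± 5.87 in the cKO group (SD, n = 4 each), and Ptprg, a receptor phosphatase with a carbonic anhydrase-like domain that senses bicarbonate, was at 167 CPM ± 14.9 and 234 CPM ± 50.3 (SD, n = 4 each). Their adjusted p in edgeR's quasi-likelihood test were 0.329 and 0.352. Car13, a cytosolic carbonic anhydrase, was at 8.53 CPM ± 2.12 in controls and 17.2 CPM ± 5.18 in the cKO group (SD, n = 4 each), with cKO S3 inside the control range and an adjusted p of 0.271 in edgeR. Asic1, an acid-sensing cation channel, had a log2 fold change of −0.57, and Atp6v0e, a membrane subunit of the vacuolar proton pump, one of −0.47, with adjusted p of 0.395 and 0.501 in edgeR.

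**Figure D4:**
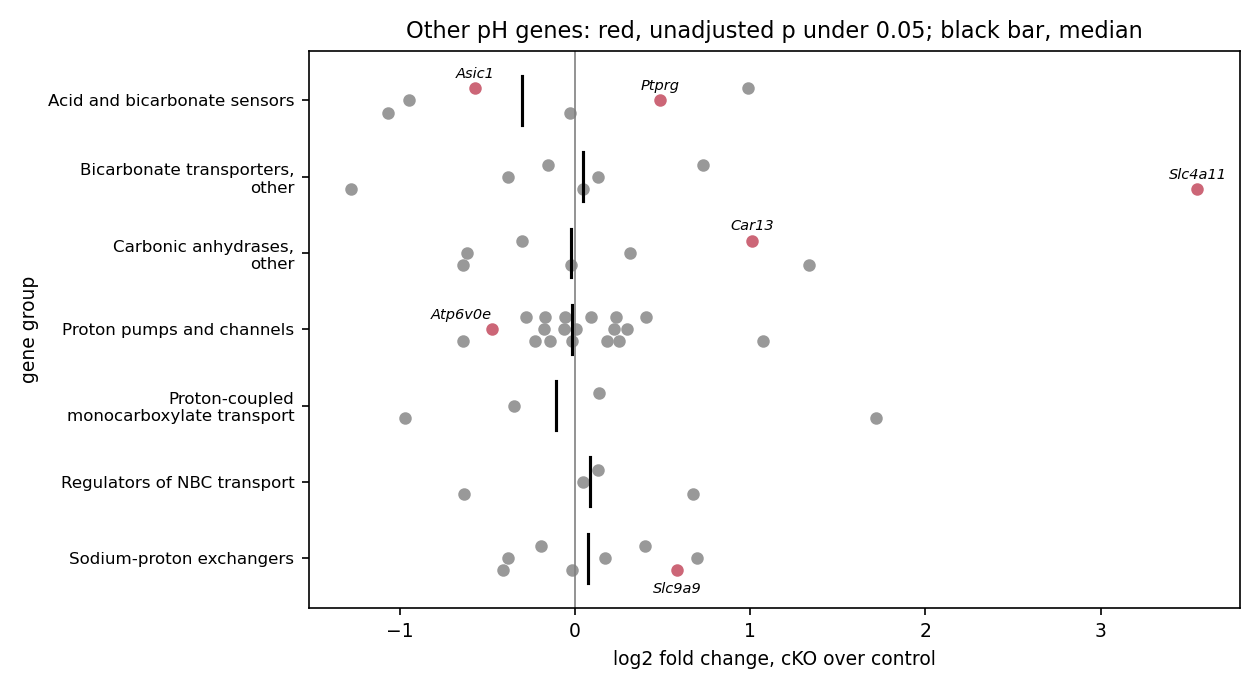
Log2 fold change of cKO over control for the 55 tested genes of the wider pH list, by gene group, with the group median as a black bar. The 6 genes at an unadjusted p under 0.05 are red and named, and the medians of the 7 groups lie between −0.30 and 0.087.

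None of the 8 most abundant genes of the wider list, ranked by the authors' deposited FPKM in controls, passed the threshold. The ranking depends on the unit. Per kilobase of merged exon in controls, Bsg (135 CPM per kilobase) lay above Ahcyl1 (128). On that scale Slc9a3r1 (49.7), which is not among the 8, lay above Atp6v1a (17.7). Ahcyl1, which encodes IRBIT, an activator of NBCe1, led with a mean of 470 FPKM in controls and 501 FPKM in cKO in the authors' deposited values, and its log2 fold change from counts was 0.043 (adjusted p 0.956 in edgeR). Bsg, the chaperone of proton-coupled monocarboxylate transporters, followed with 287 and 314 FPKM. The vacuolar proton pump genes Atp6v0b, Atp6v1a, Atp6v0e, Atp6v0c and Atp6ap1 were at 246, 165, 144, 110 and 91.7 FPKM in controls. Ptprg, described above, completes the 8. The group of 23 pump and channel genes had 19 tested, 0 called and a median log2 fold change of −0.016.

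Genes whose levels followed a member most closely over the 8 libraries are given as a description, since all values of a library share its depth and cell makeup. Likeness was the Pearson correlation of log2 CPM among 7572 tested genes with a mean of at least 10 CPM, predicted genes and pseudogenes left out. For Slc4a4 the nearest were Cpeb1 (0.96), Stoml2 (0.96) and Paqr8 (0.94). For Car2 they were Mgst1, Tmx2 and Pdia4 (0.98, 0.97 and 0.97). For Car14 the nearest was Hr (0.97), at 140 and 171 CPM in control S1 and S2 and at 57.3 to 86.8 CPM in the other 6 libraries, followed by Eif4a2 and Timm21 (0.96 and 0.95). For Slc4a7 they were Fmr1, Selenot and Zdhhc21 (0.98, 0.97 and 0.97), all lowest in cKO S5. Slc4a8 was nearest to Heg1, Brwd1 and Grk3 (0.92 each), Slc4a2 to Nek7, Zfp687 and Bloc1s6 (0.94, 0.91 and 0.90) and Slc4a3 to Prmt9, Ppp3cc and Tti1 (0.95, 0.94 and 0.94).

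In the authors' deposited table none of the 9 members had an adjusted p under 0.05, where 2.87% of 12314 genes with an adjusted p did. The log2 fold changes there, also from the authors' deposited table, were −0.86 for Car4 (adjusted p 0.231), −0.71 for Car14 (0.375), −0.41 for Slc4a7 (0.477) and −0.40 for Slc4a8 (0.458). The group means in the authors' deposited table lie further apart than those fold changes, at 92.3 in controls and 33.8 in cKO for Car4 and at 713 and 198 for Car14. Its fold changes are therefore not the plain ratio of its means, and the cause was not tested. For Slc4a4 the authors' deposited table gave 0.033, and for Slc4a10 it gave no adjusted p.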

How the data were processed

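Per the labels, total RNA from sorted cells was made into cDNA with the NuGEN RNA-Seq V2 kit. The authors deposited raw counts per gene for each library. Per the submitters' processing notes, TopHat2 2.0.11, Bowtie2 2.2.3, HTSeq 0.6.1p1, DESeq2 1.14.1 and Cufflinks 2.2.1 with Cuffnorm were used with GRCm38, and roles, annotation release and strand setting are not given in the sources used here. The 5 summary lines that name no gene (56.4% to 61.7% of reads) were left out. The authors also deposited FPKM per library and, per the file headers, a DESeq2 comparison with group means of scaled counts (a signal), a log2 fold change, its standard error and Wald statistic (scores) and p-values. FPKM columns S6, S7, S4, S5 and S8 followed the counts of another library of the same group more closely than those of the library they are named for (11803 genes, 3 of 8 columns closest to their own name, 8 of 8 to their own group), so FPKM was used only by group. Whether the counts or the FPKM carry the right names cannot be told from the sources used here. Library names given here are those of the counts, and for S6, S7, S4, S5 and S8 they are uncertain within the group.

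Counts were tested with edgeR 4.0.16 in R 4.3.3 (filterByExpr, TMM, quasi-likelihood, all 8 libraries, no covariate). Standard errors come from the F statistic, and 95% intervals use the moderated degrees of freedom. The edgeR fit was tested on simulated data. Alternatives were RLE factors, library totals, 2 count filters, DESeq2 1.42.0, limma-voom 3.58.1, limma on log2(FPKM + 0.1) and log2(FPKM + 1) for genes of at least 0.1 FPKM in 4 libraries, and leaving out each library. Marker levels (mean log2 CPM, prior count 2) were compared by exact permutation, where the smallest p for 4 against 4 is 0.0286. The labels call the libraries biological replicates. The members, lists and alternatives were chosen with earlier results of these data known. Named were all members, Kcnj10, the wider-list genes of unadjusted p under 0.05 (up to 8) and its 8 most abundant by FPKM, and the 3 genes most like each member of at least 10 CPM. Coordinates and coding sequences are from GENCODE M21 (GRCm38). Protein sequences were not used here.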

Additional observations from a re-analysis of the deposited data

How the results depend on the processing

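No member passed the threshold in any of the 16 alternatives, and Slc4a7, Slc4a8, Slc4a10, Car4 and Car14 kept a negative log2 fold change in all of them. Without one replicate each, the log2 fold changes ranged from −0.66 to −0.25 for Slc4a7, −0.60 to −0.30 for Slc4a8, −0.85 to −0.44 for Slc4a10, −2.12 to −1.15 for Car4, −2.61 to −1.30 for Car14, 0.028 to 0.38 for Slc4a2, −0.14 to 0.21 for Slc4a3, −0.018 to 0.13 for Slc4a4, −0.16 to 0.14 for Car2 and −5.90 to −5.61 for Kcnj10. On log2(FPKM + 0.1) and log2(FPKM + 1) the sign turned for Slc4a2 (−0.12 and −0.11), Slc4a3 (−0.58 and −0.54) and Car2 (0.018 and 0.018). Car2 also turned with library totals (0.090) and limma-voom (0.036). The cause was not tested. The count of genes past the threshold, 47, was 87 with at least 1 count in any library, 84 with at least 10 in every library, 384 with DESeq2 and 11 and 12 on the 2 FPKM scales. It ranged from 4 to 45 when each library was left out, and fell by over 1.5 times without cKO S4 (4), control S2 (14), control S6 (16), cKO S5 (24), cKO S8 (28) and control S1 (30). In the wider list DESeq2 called 1 gene and the other alternatives 0. Slc4a11 had no value under the filter of at least 10 counts in every library. The mural marker difference turned with a prior count of 0.5 (0.010) and lay between −0.29 and 0.12 without one replicate each, and the microglial one between −0.30 and 0.54. No paired analysis was possible because the groups share no replicate number. Slc4a10 and Car4 had as few as 13 reads in a library, while Car14, with 85 to 1025 reads, had the largest standard error of the members, 0.72.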

Other observations

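Slc4a3 differed between the deposited units. By counts its groups overlapped, with 29.7 CPM ± 9.26 in controls and 30.6 CPM ± 6.30 in cKO (SD, n = 4 each). By the authors' deposited FPKM values it was at 15.1 to 22.9 FPKM in the control columns and at 10.8 to 13.8 FPKM in the cKO columns, with no overlap, and the difference on log2(FPKM + 0.1) was −0.58 with an unadjusted p of 0.0258 and an adjusted p of 0.546 from limma. FPKM columns were compared only by group, so that column names play no part in this. By counts, 6.34% of all genes tested had groups that did not overlap, and 9.81% had an unadjusted p under 0.05 in edgeR. These shares were not computed for FPKM, so the Slc4a3 values cannot be set against a background on that scale. The cause of the difference between units was not tested.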
